A study of Mus musculus with 14 samples.

Results

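The cytosolic ribosomal proteins were followed through 7 groups of postnatal mouse male germ cell libraries. The members were the rows of the expression tables whose gene symbol is Rpl or Rps followed by a, p0 to p2 or a number with an optional letter, digit or l, without the Rps6k kinases and without rows marked as pseudogenes by -ps. The rule took 84 of 24340 rows, 51 of the large subunit (Rpl) and 33 of the small subunit (Rps), and it used no measured value. The 84 genes lie on 19 chromosomes, and 4 of them (Rpl10, Rpl36a, Rpl39 and Rps4x) are X-linked in GENCODE M21 on GRCm38. That annotation calls 83 of them protein coding, and it lists Rps4l as a transcribed processed pseudogene.

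Male germ cells came from testes of C57BL/6 mice at postnatal day 7 (P7) or day 3 (P3), with 2 libraries per group. In the P7 DKO and P3 DKO groups the germline driver Vasa-Cre was combined with loss of both copies of Jmjd1a and of Jmjd1b (Vasa-Cre; Jmjd1a-/-; Jmjd1b-/-). The P3 Jmjd1aKO group lacked Jmjd1a and kept 1 copy of Jmjd1b (Jmjd1a-/-; Jmjd1b-/+), and the P3 Jmjd1bKO group had the converse genotype (Jmjd1a-/+; Jmjd1b-/-), both with Vasa-Cre. The P7 Ctrl and P3 Ctrl groups carried Vasa-Cre and 1 copy of each gene (Jmjd1a-/+; Jmjd1b-/+), so that these controls are heterozygous and express the driver, and the P3 WT group was wild type. Jmjd1a and Jmjd1b are demethylases of lysine 9 of histone H3, listed as Kdm3a and Kdm3b. No sorting step is given in the labels, and neither is the number of animals behind a group, so a p-value here speaks of the spread among libraries, which may be technical.

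Cytosolic ribosomal proteins assemble with ribosomal RNA into the subunits that read mRNA (small) and join amino acids (large). Their mRNAs are among the most abundant of growing cells, and in mammals they typically begin with a run of pyrimidines at the first transcribed base, the 5′ terminal oligopyrimidine tract, through which the mTORC1 kinase adjusts their translation. Several of the genes have expressed paralogues, and in mouse some of these, such as Rpl10l and Rpl39l, serve the germ line at stages when the X chromosome is silent. Many of the genes also have families of processed pseudogenes, DNA copies of its spliced mRNA, which makes the assignment of short reads uncertain.

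A pyrimidine run of this kind was looked for in RefSeq promoter sequences (GRCm38.p6), which matched 63 of the 84 members. The motif was a C followed by at least 4 C or T bases, read on the gene's own strand only. It began exactly at the annotated start of transcription in 13 of the 63 matched members (20.6%), against 3.01% of 27025 genes in the same table. It began within 20 bases of the start in 51 of the 63 (81%), against 53.3% of all genes. The sequences below show 6 of the 13 starts, among them 2 of the most abundant members (Rpl38 and Rps18), the stalk gene Rplp2 and 3 rows described below (Rps6, Rps15a and Rps27). The capitals mark the run from the annotated first transcribed base, and the 15 lower case bases before it are upstream of the start.
Rpl38 (chr11:114668565-114668594, plus strand): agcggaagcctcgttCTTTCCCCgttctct
Rps18 (chr17:33955651-33955680, minus strand): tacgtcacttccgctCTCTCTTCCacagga
Rplp2 (chr7:141447636-141447665, plus strand): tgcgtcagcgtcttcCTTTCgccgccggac
Rps6 (chr4:86857353-86857382, minus strand): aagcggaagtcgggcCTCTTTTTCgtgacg
Rps15a (chr7:118116133-118116162, minus strand): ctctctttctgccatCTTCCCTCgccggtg
Rps27 (chr3:90213634-90213663, minus strand): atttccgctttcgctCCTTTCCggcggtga
A match is a description of these letters and not evidence of how the transcript is translated. The run was 5 bases long in Rplp2 and 9 bases long in Rps6 and Rps18.

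The targeted genes followed the labels in these libraries. Kdm3a had 8.97 and 7.59 RPKM in P7 DKO against 27.2 and 27.1 RPKM in P7 Ctrl, and 12.1 and 14.3 RPKM in P3 DKO against 28.4 and 26.3 RPKM in P3 Ctrl, and Kdm3b was also lower in both. RPKM divides the reads of a gene by its length and by the size of the library. The files hold no counts, and the depth estimated from the steps between RPKM values was 13.6 to 51.0 M fragments per library, with P3 WT the shallowest. Summed RPKM of 7 germ cell markers was 1164 to 1586 in the 14 libraries. The second libraries of P3 Jmjd1aKO and P3 Jmjd1bKO stood apart, with 600 and 747 RPKM summed over 8 Sertoli cell markers, against 31.0 to 129 RPKM in the other 12 libraries. The counts of members called are therefore also given without those 2 libraries. In bulk samples such as these, fewer cells of a type and less RNA per cell cannot be told apart.

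The members were among the most abundant transcripts. The median over the 84 members of the mean level in the 14 libraries was 1001 RPKM, against 9.87 RPKM over the 14772 rows that passed a filter of 1 RPKM in at least 2 libraries. All 84 members passed it. The mean exceeded 1000 RPKM in 42 members, and it lay under 100 RPKM in 6. The highest means were those of Rplp1, Rps28, Rpl38, Rpl41, Rps2 and Rps18. Rplp1, a protein of the stalk that recruits translation factors, ranged from 3005 to 5017 RPKM over the 14 libraries. The other stalk genes were lower, with Rplp2 at 1456 to 3210 RPKM and Rplp0 at 1228 to 1707 RPKM. The lowest means belonged to Rps15a, Rpl34, Rpl7l1, Rpl30, Rpl26 and Rpl3l. Of these, Rpl3l, the muscle paralogue of Rpl3, had 1.81 to 13.1 RPKM.

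Low values of some core subunit genes went together with high values of a pseudogene row of nearly the same sequence. Rpl26, a protein near the exit of the peptide tunnel, was listed at 7.03 and 0 RPKM in P7 DKO and at 23.2 and 73.9 RPKM in P7 Ctrl. The processed pseudogene Gm15772 on chromosome 5, 99.54% identical to the coding sequence of Rpl26, had 3018 and 3910 RPKM in P7 DKO and 2714 and 2706 RPKM in P7 Ctrl. Rpl26 thus held 0 to 2.83% of the summed value of the pair in the 14 libraries. In the same way Rpl30 held 1.62 to 4.6% of its sum with Gm12191, and Rpl34 held 2.75 to 6.06% of its sum with Rpl34-ps1. How the authors assigned reads that match several genes is not given in the sources used here.

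The least stable row was Rps27, a zinc finger protein of the small subunit on chromosome 3 (90212522 to 90213651, minus strand). Its libraries had 3794 and 6003 RPKM in P7 DKO, 2761 and 2955 RPKM in P7 Ctrl, 888 and 1147 RPKM in P3 DKO and 993 and 872 RPKM in P3 Ctrl. In P3 WT it had 837 and 36.4 RPKM, a gap of 4.49 on the log2 scale between replicates. Rps27rt, a copy on chromosome 9 (114982366 to 114982739) with 100% identity over the coding sequence, had 838 and 1490 RPKM in the same 2 libraries. The summed values of Rps27 and Rps27rt were close, at 1676 and 1526 RPKM in P3 WT, so that the gap in Rps27 lay in how the value was divided. Rps27 held 2.38 to 99.9% of that sum over the libraries.

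**Figure D1:**
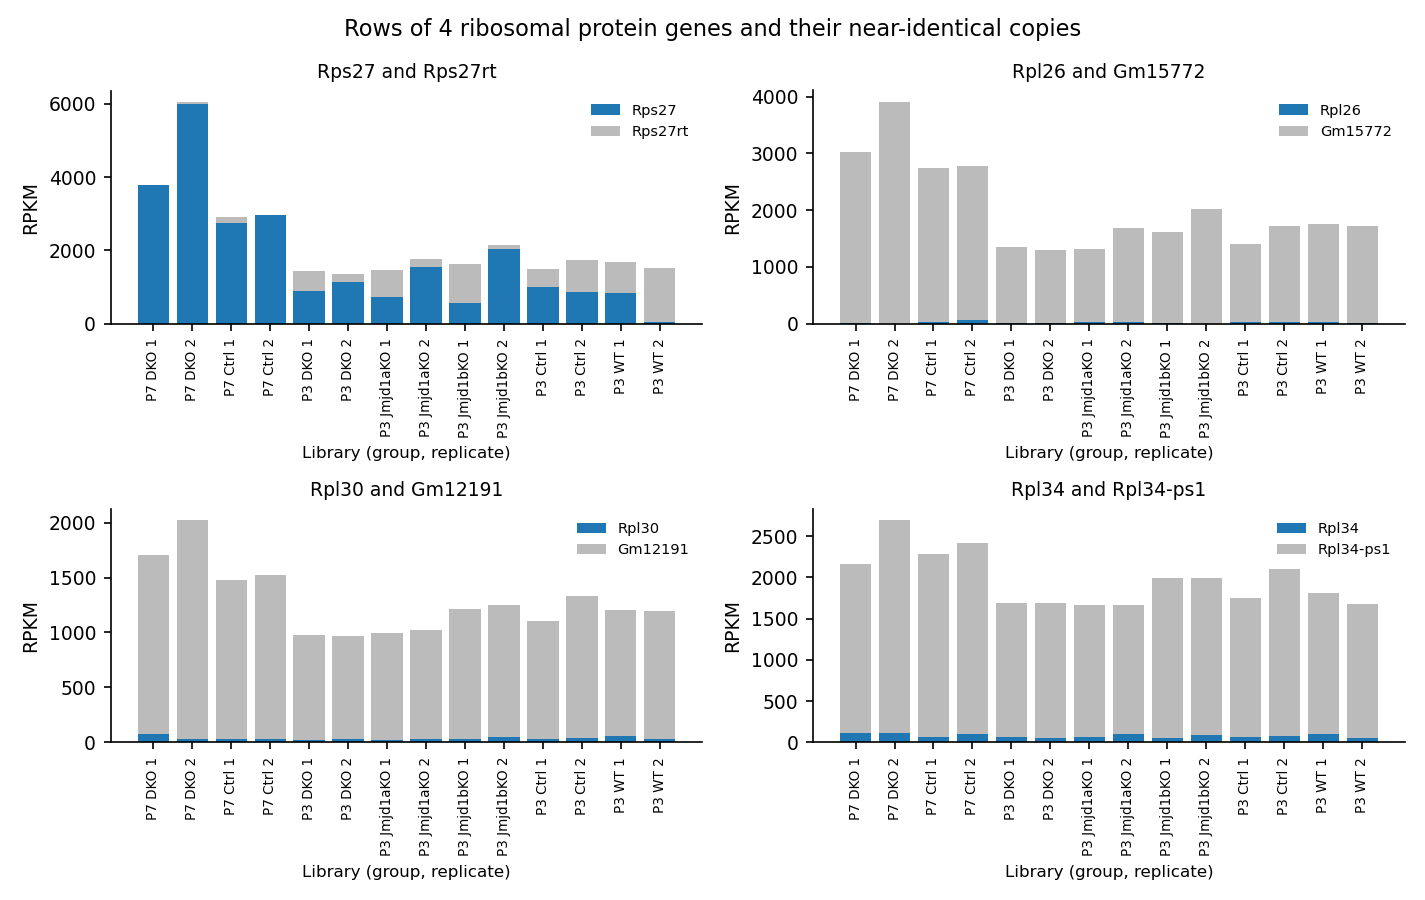
Stacked bars give the RPKM (linear axes) of a member (blue) and of its near-identical copy (grey) in each of the 14 libraries, in 4 panels. Rpl26, Rpl30 and Rpl34 are at most thin blue slivers, while the blue share of the Rps27 bars ranges from 2.38 to 99.9%.

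Replicates differed by at least 1 on the log2(RPKM + 1) scale in some group for 4 members. These were Rps27, Rpl26 with a gap of 3.0 in P7 DKO, Rpl30 with 1.09 in P7 DKO and Rpl3l with 1.05 in P3 Jmjd1bKO. Of these 4, Rpl3l has 0 near-identical annotated copies and is a low row, with a mean of 6.23 RPKM. Near-identical copies are common among the other members. In GENCODE M21, 77 of the 84 members have at least 1 other annotated gene with at least 95% identity over at least 80% of the coding sequence, with a median of 5 and a maximum of 57 for Rpl21. The tables list 13 rows annotated as pseudogenes or named as retrocopies that match 12 members in this way. Outside Rpl26, Rpl30, Rpl34, Rps27 and Rps15a, these members held at least 95.7% of the sum in every library. Rps15a held 65.1 to 95.5% of its sum with 2 pseudogenes. Values of individual ribosomal protein genes are uncertain at least to that extent. Rpl7a, Rpl21, Rpl36a, Rplp2 and Rps23 also have a matching row, of another annotation, that was not summed. Most annotated copies have no row and could not be summed. For the 12 members, changes that depend on the copies are given with them summed.

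Together the members held between 14.9% and 24.0% of the summed RPKM of a library. The share was 20.6 and 24.0% in the 2 P7 DKO libraries and 19.9 and 20.4% in the P7 Ctrl libraries. At P3 it was 14.9 and 15.0% in P3 DKO, 14.9 and 16.6% in P3 Jmjd1aKO, 16.0 and 18.4% in P3 Jmjd1bKO, 15.0 and 16.7% in P3 Ctrl and 16.3 and 15.8% in P3 WT. All 4 P7 libraries were above all 10 P3 libraries. Between P7 DKO and P7 Ctrl the shares did not overlap either, but replicate 1 of P7 DKO lay close to P7 Ctrl.

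The median member was at 1403 and 1814 RPKM in P7 DKO, at 1154 and 1211 RPKM in P7 Ctrl, at 695 and 682 RPKM in P3 DKO and at 801 and 957 RPKM in P3 Ctrl. In P3 Jmjd1aKO it was at 716 and 934 RPKM, in P3 Jmjd1bKO at 887 and 1102 RPKM and in P3 WT at 904 and 858 RPKM. Ordered by mean, the groups ran P7 DKO, P7 Ctrl, P3 Jmjd1bKO, P3 WT, P3 Ctrl, P3 Jmjd1aKO and P3 DKO. The 4 groups from P3 Jmjd1bKO to P3 Jmjd1aKO overlapped in their libraries. Members moved together within a group as well. In P7 DKO 81 of 84 members were higher in replicate 2, with a median difference of 0.35 on the log2 scale, and in P3 Ctrl 80 were higher in replicate 2, with a median of 0.23. In P7 Ctrl the replicates differed by a median of 0.01.

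**Figure D2:**
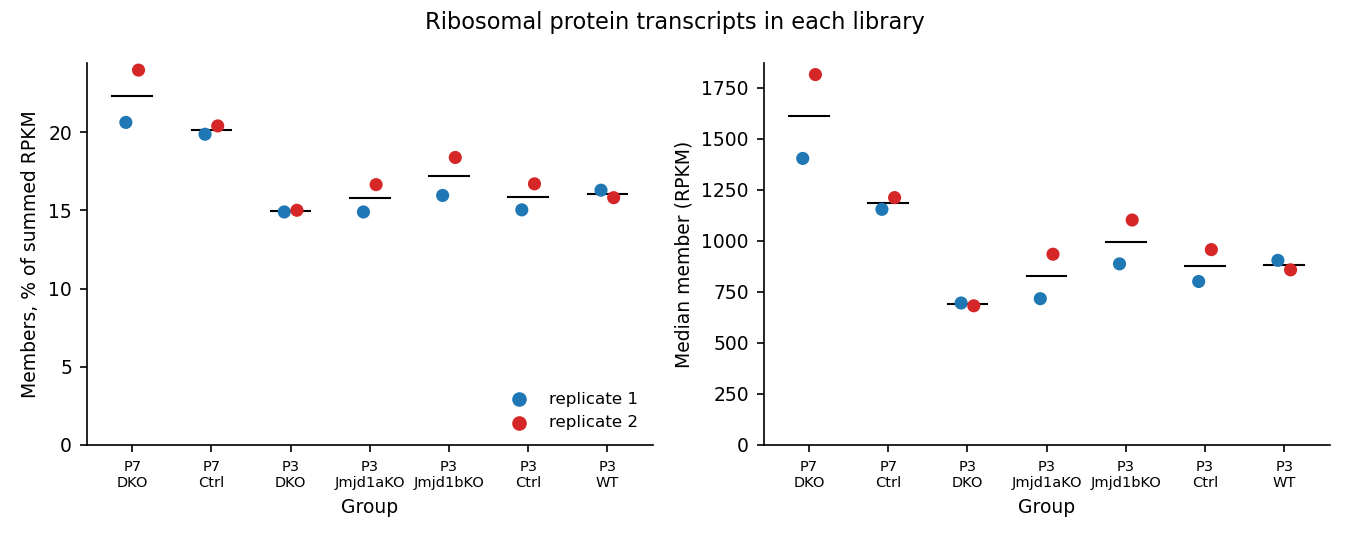
The left panel gives the percent of summed RPKM held by the 84 members and the right panel the RPKM of the median member, with 1 point per library (replicate 1 blue, replicate 2 red) and a line at the group mean. The P7 libraries lie at 19.9 to 24.0% and the P3 libraries at 14.9 to 18.4%, and replicate 2 of P7 DKO is the highest of all.

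At day 7 ribosomal protein transcripts were on balance higher in DKO germ cells, and the paralogues Rps27l and Rpl22l1 had the largest rise and the largest fall among well measured rows. In P7 DKO against P7 Ctrl, 23 members rose and 2 fell (limma on log2(RPKM + 1), Benjamini-Hochberg adjusted p under 0.05 over all genes tested), where 17.4% of all genes tested rose and 16.1% fell. Counted in either direction, 29.8% of members passed, against 33.5% of all genes. The median change of the 84 members was 0.33, against 0.02 for all genes, and 78 of the 84 had a positive change. The median of genes with transcripts of at most 1000 nucleotides was 0.07. The risers were 10 of 51 in the large subunit, near the share of all genes, and 13 of 33 in the small subunit, above it. The median changes were 0.28 in the large and 0.43 in the small subunit.

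Rps27l, the paralogue of Rps27 and a known target of p53, lies on chromosome 9 (66946086 to 66949516, plus strand). It had 469 and 565 RPKM in P7 DKO against 182 and 195 RPKM in P7 Ctrl. Both DKO libraries were above every other library of the series, which lay at or under 261 RPKM. The log2 change was 1.44 ± 0.20 (SE; limma, adjusted p = 0.00073), and it passed with each of the 4 libraries left out in turn. Rpl41, the smallest ribosomal protein, had 4331 and 5563 RPKM in P7 DKO against 2479 and 2499 RPKM in P7 Ctrl, a change of 0.98 ± 0.32 (adjusted p = 0.0412) that passed with none of the 4 left out. Rpl36 of the large subunit had 1439 and 2025 RPKM in P7 DKO against 896 and 908 RPKM in P7 Ctrl. Rps2, a protein of the mRNA entry of the small subunit, had 3366 and 3794 RPKM in P7 DKO against 2076 and 2123 RPKM in P7 Ctrl. For each of these genes the DKO libraries were above both controls. The changes were 0.92 ± 0.17 for Rpl36 (adjusted p = 0.0028) and 0.77 ± 0.12 for Rps2 (adjusted p = 0.0013), and both passed in all 4 fits without a library. The other large rises were Rpl39 (0.85 ± 0.19, adjusted p = 0.0076) and Rpl27a (0.75 ± 0.20, adjusted p = 0.0186). Rpl39, an X-linked gene for a protein in the wall of the exit tunnel, had 958 and 1028 RPKM in P7 DKO against 543 and 561 RPKM in P7 Ctrl.

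Of the 2 members that fell, Rpl22l1 did so in a well measured row. Rpl22l1 is the paralogue of Rpl22, an RNA-binding protein of the large subunit that in mouse is known to hold Rpl22l1 expression down. The gene lies on chromosome 3 (28805436 to 28807424, plus strand). It had 155 and 197 RPKM in P7 DKO against 446 and 453 RPKM in P7 Ctrl. The P7 Ctrl libraries were the highest of the series, and the DKO libraries did not overlap with them. The log2 change was -1.36 ± 0.27 (adjusted p = 0.0044), and it passed in all 4 fits without a library. Rpl22 had 188 and 255 RPKM in P7 DKO against 150 and 155 RPKM in P7 Ctrl, which missed the threshold (0.52 ± 0.28, adjusted p = 0.185). The ratio of Rpl22l1 to Rpl22 was 0.823 and 0.771 in P7 DKO against 2.97 and 2.93 in P7 Ctrl. The other fall was that of Rpl26 (-3.91 ± 0.96, adjusted p = 0.0116), in a row that held at most 2.83% of its sum with Gm15772. With the copies summed, the values were 3025 and 3910 RPKM in P7 DKO against 2737 and 2780 RPKM in P7 Ctrl, and the change was 0.32 (adjusted p = 0.188).

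**Figure D3:**
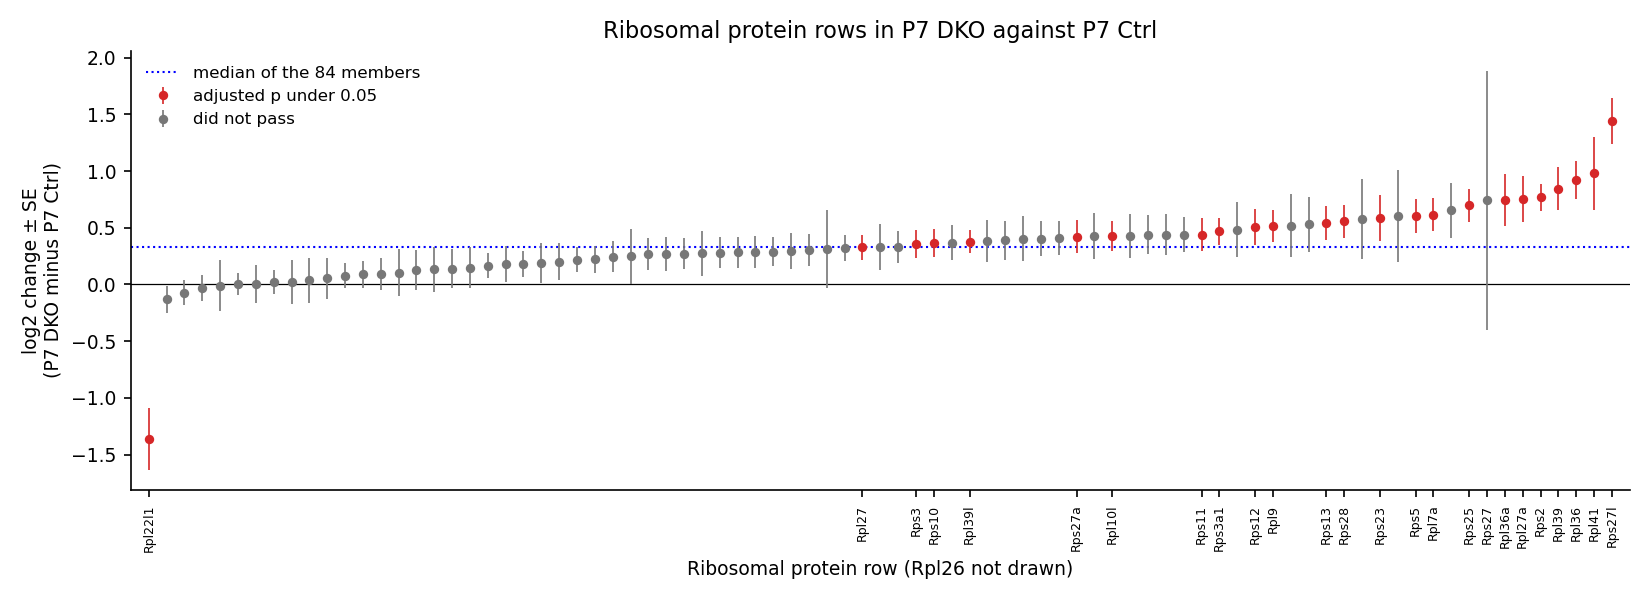
Each point is the log2 change (P7 DKO minus P7 Ctrl) of a member with its standard error, in order of size, red where the adjusted p was under 0.05, with the median of the 84 members as a dotted line. Rps27l stands at the right end with 1.44 and Rpl22l1 at the left end with -1.36, the error bar of Rps27 is the widest, and Rpl26 (-3.91) is not drawn. Names are given for the members that passed and for Rps27.

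The count of members called at P7 depended on single libraries. Without replicate 2 of P7 DKO 5 members rose (5.95%, against 11.2% of all genes) and 1 fell, and the median was 0.16. Without replicate 1 of P7 DKO 39 rose (46.4%, against 15.0% of all genes) and 2 fell, with a median of 0.49. Without replicate 1 of P7 Ctrl 4 rose (4.76%, against 8.83% of all genes) and 2 fell, and without replicate 2 of P7 Ctrl 6 rose (7.14%, against 9.11% of all genes) and 1 fell, with medians of 0.33 and 0.32. The share of members that rose was thus under that of all genes in 3 of these 4 fits. It was also under it in a fit of the 2 compared groups only, where 11 members (13.1%) and 18.2% of all genes rose. Without the libraries with high Sertoli markers 29 rose and 2 fell, where 20.9% of all genes rose and 19% fell. When every library was scaled to the same summed RPKM, which moved the median of all genes to -0.13, 11 members rose and 6 fell. The members' median was then 0.11, and 9.56% of all genes rose and 22.4% fell. Under that scaling Rps7, Rpl6, Rpl7 and Rplp0 were among the members that fell. Centred on the members themselves, which asks how each moved relative to the others, 6 were higher and 19 lower, with 3.33% of all genes higher and 24.4% lower. Markers of other cell types differed between the groups in some lists only. Summed endothelial markers (4 genes) were 2.27 and 1.45 RPKM in P7 DKO against 9.06 and 9.10 RPKM in P7 Ctrl, and summed stromal markers (6 genes) were 6.65 and 5.81 RPKM in P7 DKO against 18.9 and 18.8 RPKM in P7 Ctrl. Of the endothelial markers 2 fell and 0 rose, with a median change of -1.08. Of the stromal markers 2 fell (Col1a1 and Pdgfra) and 0 rose, where 16.1% of all genes fell. The median change of the stromal markers was 0.03, so the lower sum was not that of the typical marker. Summed Sertoli markers (8 genes) overlapped, with 70.9 and 129 RPKM in P7 DKO against 83.6 and 94.9 RPKM in P7 Ctrl. Of these 0 passed, with a median change of 0.06. Of the 7 germ cell markers, Dazl rose by 0.62 and 3 fell, among them Zbtb16 (-1.94 ± 0.30, adjusted p = 0.0011) and Sall4 (-1.23 ± 0.08). No marker of the endothelial, stromal and Sertoli lists was at 0 in both libraries of either group. Their part in the result was not tested.

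At day 3 the same family lay lower in DKO germ cells, but few members passed the test. In P3 DKO against P3 Ctrl 2 members fell and 0 rose, where 4.47% of all genes passed, 2.29% lower and 2.18% higher (limma, adjusted p under 0.05). At an unadjusted p under 0.05 there were 26 members, and the share of all genes at that threshold was not computed. The median change was -0.30, against 0.01 for all genes, and 79 of 84 changes were negative. The median was -0.40 without replicate 1 of P3 Ctrl and -0.18 without replicate 2 of P3 Ctrl. The fall was of the size of the gap between the 2 P3 Ctrl libraries, whose members differed by a median of 0.23. Rpl7l1, a protein that resembles Rpl7, had 38.7 and 38.3 RPKM in P3 DKO against 53.7 and 69.1 RPKM in P3 Ctrl, a change of -0.65 ± 0.15 (adjusted p = 0.0421). Rps4l had 289 and 295 RPKM in P3 DKO against 391 and 445 RPKM in P3 Ctrl, a change of -0.51 ± 0.12 (adjusted p = 0.0490). In both genes the DKO libraries lay under both controls. Neither passed when any of the 4 libraries was left out. With the same-sum scaling 1 fell, where 0.602% of all genes fell and 5.27% rose, and the median was -0.10, against 0.18 for all genes. Centred on the members 0 passed, where 0.0745% of all genes were higher and 0.0203% lower. Without the 2 libraries with high Sertoli markers, which belong to neither group, 10 members fell and 1 rose, where 5.67% of all genes fell and 7.4% rose. Rpl7l1, Rps4l, Rpl41, Rpl7a and Rpl27a were among those that fell, and the riser was Rpl3l. Summed stromal markers were 18.5 and 18.8 RPKM in P3 DKO against 12.2 and 10.6 RPKM in P3 Ctrl, and summed Sertoli markers were 50.5 and 53.0 RPKM in P3 DKO against 40.7 and 31.0 RPKM in P3 Ctrl. Their part in the result was not tested.

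The change in DKO cells differed between the ages. The difference of the DKO changes (P7 minus P3) was positive and past the threshold in 31 members and negative in 1, where 12.2% of all genes tested were higher and 10.7% lower. Its median over the members was 0.65, against -0.03 for all genes, and 79 of 84 members were positive. Rpl7a, a large subunit protein, shows the pattern in its libraries, with 1684 and 1946 RPKM in P7 DKO against 1156 and 1209 RPKM in P7 Ctrl, and 565 and 526 RPKM in P3 DKO against 765 and 879 RPKM in P3 Ctrl. The DKO libraries were above their controls at P7 and under them at P3. In Rps27l the difference was 1.87 ± 0.29 (adjusted p = 0.0026), from a change of 1.44 at P7 and one of -0.43 at P3 that did not pass. Rpl27a (1.34 ± 0.29), Rpl7a (1.20 ± 0.21) and Rpl36 (1.15 ± 0.24) also differed, with adjusted p of 0.0107, 0.0042 and 0.0089. Rps27l, Rpl27a, Rpl7a and Rpl36 passed in all 8 fits that left out 1 library. Rpl41 (1.63 ± 0.46, adjusted p = 0.0303) and the X-linked Rpl36a (1.14 ± 0.33, adjusted p = 0.0328) passed in 2 of the 8. Rpl22l1 was the member with a negative difference, -1.50 ± 0.39 (adjusted p = 0.0216), and it passed in 2 of the 8. With libraries scaled to the same sum, 10 members were higher and 3 lower, where 3.92% of all genes were higher and 21.4% lower, and the median was 0.22, against -0.37 for all genes. Centred on the members 5 were higher and 15 lower, where 0.839% of all genes were higher and 30.3% lower. Without the libraries with high Sertoli markers 42 were higher and 1 lower, where 15.9% of all genes were higher and 15.6% lower. Without replicate 2 of P7 DKO 15 members were called (17.9%, against 16.5% of all genes), and without replicate 1 of it 53 (63.1%, against 22.4%). Without replicate 1 of P7 Ctrl 10 were called (11.9%, against 11.1% of all genes), and without replicate 2 of it 11 (13.1%, against 11.1%). Without replicate 1 of P3 DKO 19 were called (22.6%, against 16.4% of all genes), and without replicate 2 of it 12 (14.3%, against 11.9%). Without replicate 2 of P3 Ctrl 11 were called (13.1%, against 14.2% of all genes). Most of these shares lie near that of all genes, counted in either direction, whereas nearly all members called were higher. The fit without replicate 1 of P3 Ctrl is not among them. The members' median in it was 0.74, against -0.05 for all genes.

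**Figure D4:**
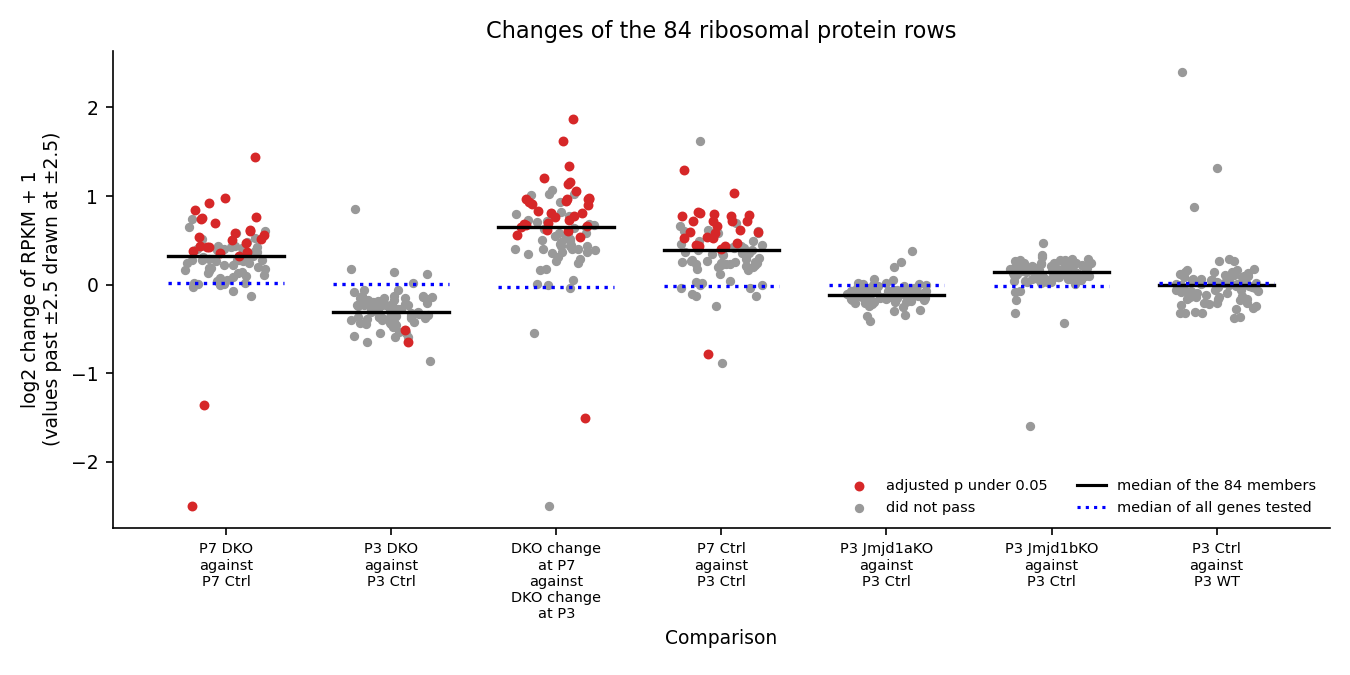
Each point is the log2 change of RPKM + 1 of 1 of the 84 members, by comparison, red where the adjusted p was under 0.05, with the members' median as a solid line and the median of all genes tested as a dotted line. The medians are 0.33 in P7 DKO, -0.30 in P3 DKO, 0.65 for their difference and 0.39 for P7 Ctrl against P3 Ctrl, and red points are absent in the last 3 comparisons.

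Many members were also higher in control germ cells at day 7 than at day 3. In P7 Ctrl against P3 Ctrl 25 members rose and 1 fell (limma, adjusted p under 0.05), where 9.94% of all genes rose and 13.4% fell. The median change of the members was 0.39, against -0.01 for all genes and -0.12 for genes of at most 1000 nucleotides, and 74 of 84 were positive. P7 Ctrl and P3 Ctrl are also the controls of the DKO comparisons, and P3 Ctrl enters the single knockout and wild type comparisons too, so these changes share libraries and are given side by side only. Rpl13a, a large subunit protein that also acts in translational silencing in immune cells, had 1735 and 1744 RPKM in P7 Ctrl against 655 and 764 RPKM in P3 Ctrl. Its change was 1.30 ± 0.22 (adjusted p = 0.0054). Rpl22l1 rose by 1.03 ± 0.27 (adjusted p = 0.0257), with 446 and 453 RPKM in P7 Ctrl against 236 and 204 RPKM in P3 Ctrl. The P7 libraries were above the P3 libraries in both genes. Rps6, the substrate of S6 kinase, had 985 and 954 RPKM in P7 Ctrl against 512 and 603 RPKM in P3 Ctrl (0.80 ± 0.14, adjusted p = 0.0061). Rpl17 (0.82), Rps15 (0.81) and Rps26 (0.78) rose by similar amounts. Rpl4 (0.62 ± 0.10, adjusted p = 0.0044) and Rps7 (0.78 ± 0.12, adjusted p = 0.0039), named here because they alone passed in all 4 fits without a library, are proteins of the large and small subunit. The count of calls was 3 without replicate 1 or replicate 2 of P7 Ctrl (3.57% of members, against 3.76% and 3.29% of all genes). It was 2 without replicate 1 of P3 Ctrl (2.38%, against 4.56% of all genes), with a median of 0.26, and 20 without replicate 2 of P3 Ctrl (23.8%, against 17.0%). Without the libraries with high Sertoli markers 37 rose and 2 fell, where 14.8% of all genes rose and 20.4% fell. Summed endothelial markers were 9.06 and 9.10 RPKM in P7 Ctrl against 26.8 and 16.1 RPKM in P3 Ctrl. Summed Sertoli markers were 83.6 and 94.9 RPKM in P7 Ctrl against 40.7 and 31.0 RPKM in P3 Ctrl. Summed stromal markers were 18.9 and 18.8 RPKM in P7 Ctrl against 12.2 and 10.6 RPKM in P3 Ctrl. Of the 4 endothelial markers 2 fell (Pecam1 and Cdh5) and 1 rose (Kdr), with a median change of -0.51. Of the 8 Sertoli and 6 stromal markers 0 passed. Their median changes were 0.53 and -0.39, so the stromal sum and the stromal median went opposite ways. The markers are given as values only. Their part in the result was not tested.

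Rps4x, the X-linked gene of a small subunit protein, was the member that fell with age in controls. It had 251 and 247 RPKM in P7 Ctrl against 442 and 417 RPKM in P3 Ctrl, a change of -0.78 ± 0.18 (adjusted p = 0.0151). The control libraries of the ages did not overlap. P3 WT, however, stood with P7 Ctrl, at 229 and 240 RPKM. The call was lost in 3 of the 4 fits without a library. Of the other X-linked members, none passed. Rpl36a had 793 and 772 RPKM in P7 Ctrl against 427 and 576 RPKM in P3 Ctrl (0.66 ± 0.23, adjusted p = 0.0653), and it passed without the libraries with high Sertoli markers (adjusted p = 0.0213).

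Summing the copies gave Rps27 a smaller error. The Rps27 row alone had a change of 1.62 ± 1.14 with age (adjusted p = 0.319), while its sum with Rps27rt rose by 0.86 (adjusted p = 0.0202). In P7 DKO against P7 Ctrl the sum rose by 0.71 (adjusted p = 0.0288), with 3797 and 6060 RPKM in P7 DKO against 2906 and 2960 RPKM in P7 Ctrl. The sum of Rpl26 and Gm15772 rose by 0.82 with age (adjusted p = 0.0112), with 2737 and 2780 RPKM in P7 Ctrl against 1409 and 1723 RPKM in P3 Ctrl. With the 13 copy rows of the 12 members summed 25 members rose and 1 fell in P7 DKO, where 17.4% of all genes rose and 16.2% fell. With age 27 rose and 1 fell, where 9.97% of all genes rose and 13.4% fell.

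Neither single knockout group, each with 1 copy of the other gene, had a called member against P3 Ctrl, and hardly any gene passed at all. In P3 Jmjd1aKO against P3 Ctrl 0 members passed, 1 had an unadjusted p under 0.05, the median was -0.11, and 0.0338% of all genes passed (0.0135% higher, 0.0203% lower). In P3 Jmjd1bKO against P3 Ctrl 0 members passed, 0 had an unadjusted p under 0.05, the median was 0.15, and 0.0203% of all genes passed (0.00677% higher, 0.0135% lower). These groups hold the libraries with high Sertoli markers. Without them the median was -0.24 for P3 Jmjd1aKO and 0.03 for P3 Jmjd1bKO, each then from 1 library that is assumed to vary like the other groups. Again 0 members passed, where 0.0406% of all genes were higher and 0.0271% lower in P3 Jmjd1aKO, and 0.0271% higher and 0.0203% lower in P3 Jmjd1bKO. For the counts at an unadjusted p under 0.05 the share of all genes was not computed. Rpl22l1 had 123 and 126 RPKM in those 2 libraries, the lowest values of the series, and 219 and 209 RPKM in the first libraries of P3 Jmjd1aKO and P3 Jmjd1bKO. The part of Sertoli transcripts in this was not tested.

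The heterozygous Cre controls also showed no called member against wild type. In P3 Ctrl against P3 WT 0 members passed (limma), where 0.704% of all genes passed (0.406% higher, 0.298% lower). At an unadjusted p under 0.05 there were 3 members, and the share of all genes at that threshold was not computed. The median change was -0.01. Differences that did not pass are given for Rps4x and Rpl3l. Rps4x had 442 and 417 RPKM in P3 Ctrl against 229 and 240 RPKM in P3 WT (0.87 ± 0.18, adjusted p = 0.0587). Rpl3l, a low row with unstable replicates, had 7.71 and 5.65 RPKM in P3 Ctrl against 2.31 and 1.81 RPKM in P3 WT (1.32 ± 0.35, adjusted p = 0.0792). In both the groups did not overlap. Both passed without the libraries with high Sertoli markers, Rps4x with an adjusted p of 0.0213 and Rpl3l with 0.0154, in a fit where 9.25% of all genes were called higher and 5.64% lower.

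The 7 paralogue rows are far less alike to their partners than the copies described above. Identity over the aligned coding sequence, or over the whole transcript for Rps4l, was 74.4% for Rpl3l and Rpl3, 74.6% for Rpl22l1 and Rpl22, 76.2% for Rps27l and Rps27, 79.7% for Rps4l and Rps4x, 84.7% for Rpl10l and Rpl10 and 85.5% for Rpl39l and Rpl39, and no alignment was found for Rpl7l1 and Rpl7. Their levels were far from balanced in most pairs. Rpl22l1 exceeded Rpl22 in 11 of 14 libraries, and Rps4l exceeded Rps4x in both libraries of P7 DKO, P7 Ctrl and P3 WT and in 1 library each of P3 Jmjd1bKO and P3 Ctrl.

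Rpl10l, an autosomal retrogene of the X-linked Rpl10 that mouse spermatocytes need for meiosis, had 184 and 226 RPKM in P7 DKO against 152 and 152 RPKM in P7 Ctrl (0.43 ± 0.13, adjusted p = 0.0324). Rpl10 had 661 and 765 RPKM in P7 DKO against 438 and 466 RPKM in P7 Ctrl, and it did not pass (0.65 ± 0.24, adjusted p = 0.0636). Without the libraries with high Sertoli markers it passed (adjusted p = 0.0110). Rpl39l, the testis-enriched paralogue of Rpl39, had 333 and 395 RPKM in P7 DKO against 290 and 269 RPKM in P7 Ctrl (0.38 ± 0.10, adjusted p = 0.0183). Both paralogues and both partners were higher in each DKO library than in either control. The ratio of Rpl39l to Rpl39 was 0.348 and 0.384 in P7 DKO against 0.535 and 0.479 in P7 Ctrl. The ratio of Rps27l to summed Rps27 and Rps27rt was 0.123 and 0.0932 in P7 DKO against 0.0628 and 0.0660 in P7 Ctrl, while all P3 libraries lay between 0.103 and 0.156. The ratio of Rps4l to Rps4x was 0.579 and 0.627 in P3 DKO against 0.884 and 1.07 in P3 Ctrl, with 1.71 and 1.59 in P3 WT. These ratios are descriptions and were not tested.

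**Figure D5:**
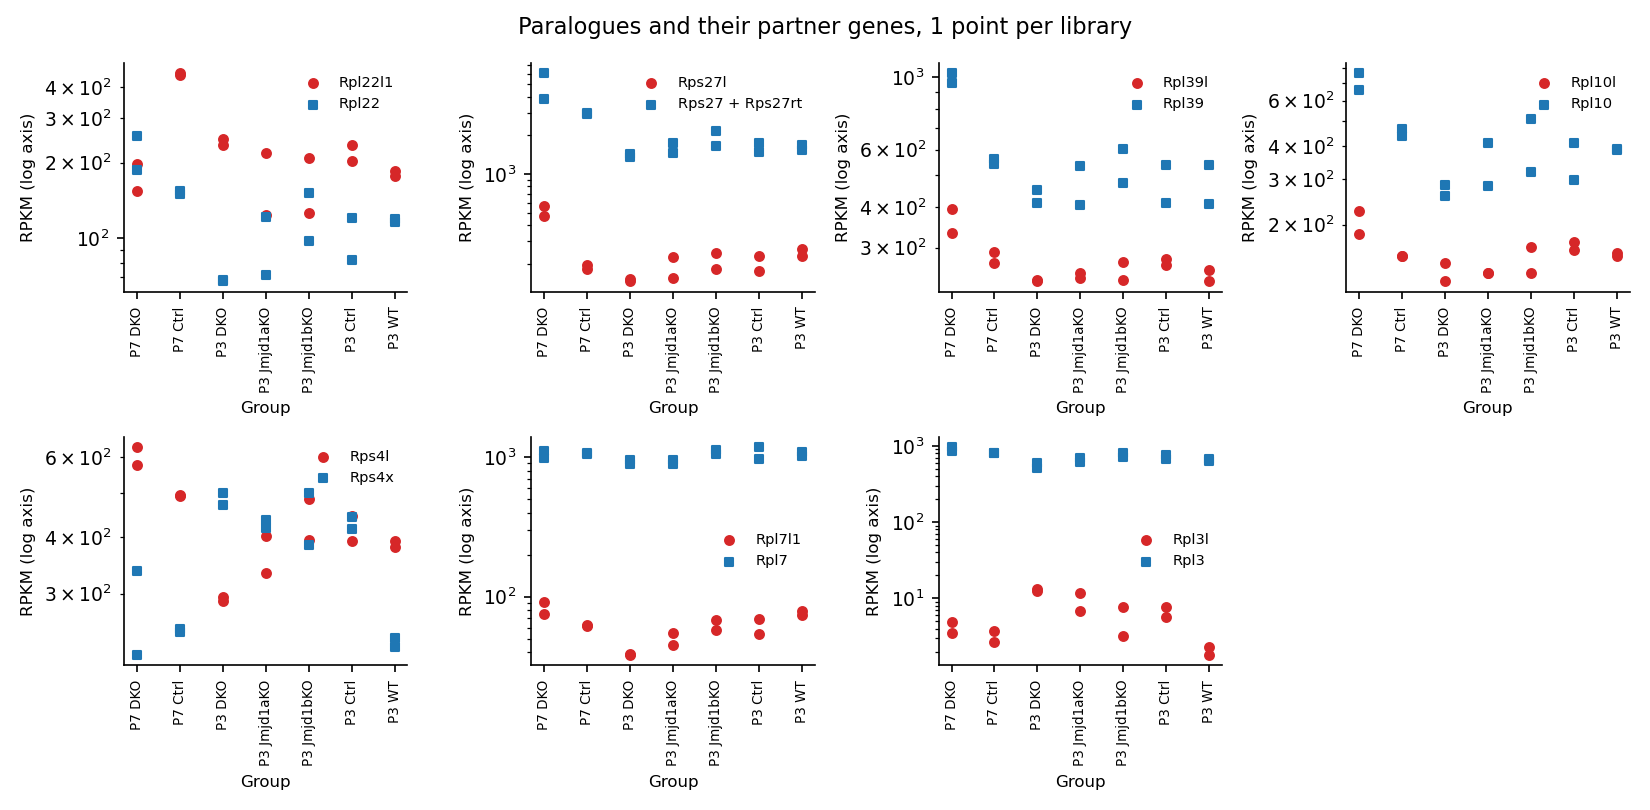
Panels give the RPKM (log axes) of 7 paralogues (red circles) and their partner genes (blue squares) in each library of the 7 groups, with Rps27 summed with Rps27rt. Rpl22l1 lies above Rpl22 in P7 Ctrl (446 and 453 RPKM) and under it in P7 DKO (155 and 197 RPKM), and Rps27l is highest in P7 DKO (469 and 565 RPKM).

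Other genes of ribosome production were followed by lists chosen with earlier results of these data known. Among 40 assembly factors tested, which process and export pre-ribosomes, 23 rose and 1 fell in P7 DKO against P7 Ctrl, with a median of 0.39. Nop58 and Gar1, core proteins of small nucleolar ribonucleoproteins, rose by 1.03 ± 0.11 (adjusted p = 0.00016) and 1.02 ± 0.13 (adjusted p = 0.0004), and Nip7 rose by 1.17 ± 0.29 (adjusted p = 0.0122). Of 34 translation factors 15 rose and 1 fell, among the risers Btf3, Eif2s1 (0.94 ± 0.10, adjusted p = 0.00019) and Eef1g, with a median of 0.31. Of 77 mitochondrial ribosomal protein genes, which serve the separate ribosome of mitochondria, 41 rose and 2 fell, with a median of 0.41, and the largest change was that of Mrps34 (1.51 ± 0.20). Of 20 genes for RNA polymerase I and its factors 4 rose and 2 fell, and Taf1c fell by 0.82 while Polr2l rose by 0.79. Of 20 genes of mTORC1 signalling and Myc 6 rose and 6 fell, with a median of 0.03. Mycn (1.33 ± 0.23), Rheb (1.27 ± 0.18) and Akt1s1 (1.04 ± 0.22) had the largest rises. Those that fell, named after their values were seen, were Tsc2 (-0.79 ± 0.08), Rptor (-0.56 ± 0.11), Max, Tsc1, Mtor and Mlst8. Of 4 ribosomal protein genes outside the rule 2 rose, Rpl36al by 0.88 and Fau by 0.46. The background of 17.4% rising and 16.1% falling applies to these counts.

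At P3 the same lists held few calls in P3 DKO against P3 Ctrl, where 2.29% of all genes tested fell and 2.18% rose. The 34 translation factors had 4 falls, among them Eif6 (-0.51 ± 0.09, adjusted p = 0.0242), Eif3l and Eif3d, and 0 rises. Of 40 assembly factors 1 fell, Nop58 (-0.54 ± 0.11, adjusted p = 0.0317), and of 77 mitochondrial ribosomal protein genes 1 fell, Mrpl12 (-0.60 ± 0.13). These 2 counts are near or under the share of all genes. Of 20 polymerase genes 2 fell, Polr2e and Polr1c. Mycl rose by 0.63 and Eif4ebp1, the inhibitor of cap-dependent translation that mTORC1 inactivates, fell by 0.41. The list medians were -0.29 for translation factors, -0.20 for assembly factors and -0.20 for mitochondrial ribosomal proteins, against 0.01 for all genes. In the difference of the DKO changes 23 assembly factors, 16 translation factors and 38 mitochondrial ribosomal protein genes were higher and 0 lower, where 12.2% of all genes were higher and 10.7% lower, and Eif4ebp1 was higher by 1.42 ± 0.13 (adjusted p = 0.00032). With age in controls the lists were mixed, with 4 assembly factors rising and 6 falling, 5 translation factors rising and 4 falling, and 10 mitochondrial ribosomal protein genes rising and 8 falling, where 9.94% of all genes rose and 13.4% fell.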

How the data were processed

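RNA of male germ cells was sequenced in 14 libraries of 7 groups. An AllPrep DNA/RNA Micro kit served for extraction and a TruSeq Stranded mRNA LT kit for the libraries, per the labels. Per the submitters' processing notes, TopHat2 2.1.1, Cufflinks 2.1.1 and the mm10 build were used, without stating the role of each. The authors deposited RPKM values of 24340 rows for each library. The annotation and the treatment of reads that match several genes are not given in the sources used here.

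Values were used as log2(RPKM + 1) without further scaling, so that changes of low rows are understated. Rows with at least 1 RPKM in at least 2 libraries were tested (14772 kept, 9568 removed). One limma 3.58.1 model (trended eBayes, R 4.3.3) with a coefficient per group gave 7 residual degrees of freedom. The 7 comparisons were two-sided, with Benjamini-Hochberg adjustment over all rows within each and a threshold of 0.05. The code was tested on simulated data. The median SE over the members in P7 DKO against P7 Ctrl was 0.155 on the log2 scale. Depth was estimated from the steps between low RPKM values, where 60.2 to 68.8% of the genes used lay within 0.2 of a whole fragment, so counts were not recovered and no count test was run.

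Coding sequences of GENCODE M21 were aligned with blastn 2.17.0 to find near-identical copies. Members named were the highest and lowest 6, the stalk genes, paralogue pairs, X-linked genes, rows with a replicate gap of at least 1, and the largest passing changes of each comparison. From the other lists up to 3 passing genes per comparison were named. The members, lists and rules were chosen with earlier results of these data known. Alternatives were a pseudocount of 0.1, no filter, 2 other scalings, the compared groups only, a replicate block, and omission of libraries. Summing of copies and centring on the members were chosen after seeing the data. The values of 1 member by name are not reported here, and it is counted among the 84.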

Additional observations from a re-analysis of the deposited data

Results flagged for a closer look

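The change in DKO germ cells differed between P7 and P3 for 32 members, by a test of the difference itself (limma, adjusted p under 0.05), where 22.9% of all genes tested passed. Those named were Rps27l with a log2 difference of 1.87, Rpl41 with 1.63, Rpl27a with 1.34, Rpl7a with 1.20, Rpl36 with 1.15, Rpl36a with 1.14 and Rpl22l1 with -1.50, each P7 minus P3. The comparison uses 4 groups of 2 libraries, and the count was 10 to 53 with 1 library left out. It was 10 without replicate 1 of P7 Ctrl, against 11.1% of all genes.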

How the results depend on the processing

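The count of members called in P7 DKO against P7 Ctrl (25) was 12 with the compared groups only (14.3%, against 34.8% of all genes) and 9 without a filter (10.7%, against 18.1%), and it ranged from 6 to 41 when a library was left out. In the main fit the 25 were 29.8% of members, against 33.5% of all genes. The members' median (0.33) was 0.11 under same-sum scaling. For P3 DKO against P3 Ctrl the count (2) was 0 with the compared groups only, with a pseudocount of 0.1, with centring on the members and with any library left out. It was 1 without a filter (1.19%, against 6.51% of all genes) and 1 under same-sum scaling (1.19%, against 5.87%). With median-centring it was 4 (4.76%, against 5.28%). Without the libraries with high Sertoli transcripts it was 11 (13.1%, against 13.1%). The last 2 shares are near or equal to that of all genes. The members' median (-0.30) was -0.10 under same-sum scaling. For P7 Ctrl against P3 Ctrl the count (26) was 8 without a filter (9.52%, against 11.2% of all genes), 2 to 20 with a library left out and 39 without the libraries with high Sertoli transcripts. For P3 Ctrl against P3 WT the count (0) was 2 without those libraries (2.38%, against 14.9% of all genes). For the difference of the DKO changes the count (32) was 20 with centring on the members, 15 without a filter (17.9%, against 13.8% of all genes), 13 under same-sum scaling and 10 to 53 with a library left out. Centring on the members called 23.8% of members, against 31.2% of all genes, and same-sum scaling called 15.5%, against 25.3%. Both shares are under that of all genes, counted in either direction. The members' median for this difference (0.65) was 0.22 under same-sum scaling and 0.46 to 0.79 with a library left out. Without the paralogue and unstable rows the share of summed RPKM was 19.3% in P7 Ctrl and 14.5% in P3 DKO. The change of Rpl26 in P7 DKO reversed to 0.32 when copies were summed.

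Same-sum scaling also turned the split of all genes in P3 DKO to 778 higher and 89 lower, from 322 and 339, and in P7 DKO to 1412 higher and 3314 lower, from 2569 and 2385, with all-gene medians of 0.18 and -0.13. The cause of these shifts was not tested. Of 24 named changes, median-centring kept all 24 past the threshold. Omission of the libraries with high Sertoli transcripts did so too, but it could not move these changes. Those libraries belong to none of the groups compared, so only the error differed. The threshold was missed by 9 without a filter, 6 with centring on the members and 4 under same-sum scaling. It was missed by 3 with the compared groups only and by 2 with a pseudocount of 0.1.

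Replicate numbers were not taken to pair the samples: 7 of 21 pairs of groups had correlated deviations over 0.1, with a range of -0.13 to 0.58. The 0.58 was that of P3 Jmjd1aKO and P3 Jmjd1bKO, whose second libraries had the high Sertoli markers. The deviations of P3 WT and P7 Ctrl were about unrelated to the mean of the other groups. That correlation was 0.41 in P3 Jmjd1aKO, 0.43 in P3 Jmjd1bKO, 0.23 in P3 Ctrl, 0.16 in P7 DKO and 0.13 in P3 DKO. Whether some groups share a replicate effect was not tested. With a replicate block the count of calls was 36 in P7 DKO (42.9%, against 38.3% of all genes), 11 in P3 DKO (13.1%, against 7.72%), 41 in the age comparison (48.8%, against 30.8%), 2 in P3 Ctrl against P3 WT (2.38%, against 5.25%) and 47 in the difference (56.0%, against 28.2%).

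Groups of 2 libraries, an estimated depth and reads shared with copies limit these values, and a library left alone in a group was assumed to vary like the others.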
